A study of Elaeis guineensis with 18 samples.

Results

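Leaves of oil palm (Elaeis guineensis) seedlings kept in heat were compared directly with leaves of seedlings kept in cold. The comparison rests on 6 of the 18 RNA-Seq libraries of the series, the 3 labelled heat and the 3 labelled cold, chosen by their treatment labels and by the library names in the count tables. All seedlings were wildtype Deli Dura palms of the same age and were given 200 mL of water daily. The heat treatment was 40 °C and the cold treatment 10 °C, and 3 control libraries from seedlings at 28 °C serve only as a reference level. Each library was made from the third leaf of several seedlings pooled within a biological replicate after the treatment, so a value describes a pool of whole leaves, and fewer cells of a type cannot be told apart from less RNA per cell.

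Heat and cold disturb a leaf in different ways. High temperature unfolds proteins, and plant cells answer by making heat shock proteins, chaperones that hold or refold other proteins. Low temperature slows enzymes and membrane transport while light is still absorbed, and chilled leaves of many plants adjust their antenna proteins, accumulate flavonoid pigments and alter calcium signalling. Oil palm is a tropical crop that is sensitive to chilling.

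Library totals were 20556534 to 22126971 counts in heat, 18634728 to 20182669 in cold and 17434882 to 18103289 in control leaves, with 25523 to 26402 genes detected. Over the 23830 genes tested, Spearman correlations were 0.981 to 0.986 among heat libraries, 0.983 to 0.985 among cold libraries and 0.899 to 0.916 between heat and cold. Replicates differed by far more than sampling noise, with a chi-square over its degrees of freedom of 18.2 to 26.0 in heat and 18.5 to 20.3 in cold. Counts were more concentrated in heat leaves, where 884 to 1092 genes made up 50% of the counts, than in cold leaves, where it took 1742 to 1801 genes. The 10 most abundant genes took 7.85 to 9.41% of the counts in heat, 4.17 to 5.35% in cold and 7.18 to 8.23% in control leaves. Photosynthetic genes were abundant in all 9 libraries, as the labelled tissue implies: the 21 light-harvesting genes alone took 1.85 to 5.9% of the counts. Levels below are CPM, counts relative to the library total scaled by TMM, a factor that was 0.966 to 1.055 in heat and 1.352 to 1.359 in cold.

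A gene was called a DEG with a Benjamini-Hochberg adjusted p under 0.05 in edgeR's quasi-likelihood test and a change of at least 2-fold. Of the 23830 genes 5276 (22.1%) were DEGs, 2943 (12.3%) higher in heat and 2333 (9.79%) higher in cold, with a median log2 fold change (log2FC, heat minus cold) over all genes of 0.00. The heat side reached further: 391 heat-higher and 178 cold-higher DEGs changed at least 8-fold (a log2FC of at least 3), and 56 and 8 had a log2FC of at least 6. Heat and cold libraries did not overlap in 2888 of the heat-higher and 2283 of the cold-higher DEGs, against 61.4% of all genes tested. The DEGs were called on these same libraries, so the lack of overlap is not separate evidence. The split between the directions depends on the scaling: 55.8% of DEGs were higher in heat with TMM, but with plain library totals only 25.2% were (1710 against 5073), the median of all genes being then −0.44. Changes below are relative to the TMM scale, with counts under library totals beside those of the groups.

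**Figure D1:**
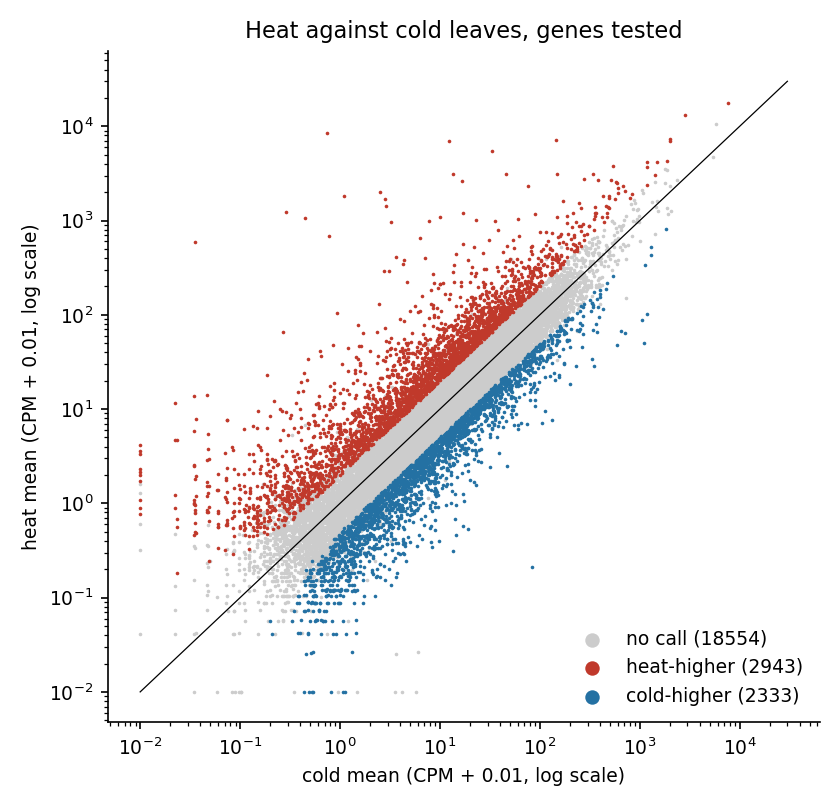
Mean level of each tested gene in the 3 cold libraries (x) and the 3 heat libraries (y), in CPM plus 0.01 on log axes, with the line of equal levels. The 2943 heat-higher DEGs are red and the 2333 cold-higher DEGs blue, and the points farthest from the line lie on the heat side.

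The gene groups below are genes that the study listed under gene ontology (GO) terms. The study drew them from DEGs of these same samples, so a group's direction is not independent evidence. For 6 of the 31 terms the list available here is cut short, and counts then refer to the genes held here. Each count of called members is to be read beside the 12.3% heat-higher and 9.79% cold-higher of all genes tested.

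Genes for the heat response and most genes for chaperones were more abundant in heat leaves. Of the 12 genes listed under response to heat, 11 were heat-higher DEGs and none was cold-higher, against 12.3% and 9.79% of all genes, and their median log2FC was 1.65. Their summed level was 18772, 18994 and 16100 CPM in the heat libraries, 1480, 1392 and 1236 in cold and 2899, 3734 and 3270 in control leaves. The groups did not overlap, and the summed level in cold lay below control as well as below heat. Most of the control sum came from LOC105053974, described below. The position of cold below control rests on that gene and did not hold for the mean sum of the other members. With library totals 7 of the 12 stayed heat-higher.

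LOC105042708, the response-to-heat gene with the largest change, measured 7420, 7588 and 6014 CPM in heat and 18.1, 14.4 and 4.36 CPM in cold, a log2FC of 9.15 ± 0.47 (SE; adjusted p = 1.44e-09). Control leaves held 0.855 to 1.03 CPM of it, so the cold level, although low, lay above control in all 3 libraries. Its neighbour LOC105042707 measured 7600, 7575 and 6270 CPM in heat, 186, 140 and 107 in cold and 10.9 to 14.7 in control leaves. Here the log2FC was 5.63 ± 0.24 (adjusted p = 1.94e-10) at nearly the same heat level as LOC105042708 but a higher cold level. LOC105042706, beside both in the gene order of the EG11 assembly, was scarce, with 3.23 to 4.22 CPM in heat and 0 to 0.182 in cold, and it too was a heat-higher DEG (log2FC 5.51 ± 0.75).

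Another response-to-heat gene, LOC105049549, which is also listed under protein refolding, measured 426, 496 and 437 CPM in heat, 27.2 ± 2.48 (mean ± SD, n = 3) in cold and 15.7 to 18.8 in control leaves (log2FC 4.06 ± 0.12). Not every member stood above control in this way. LOC105053974 differed by 1.51 ± 0.20 between heat (810, 842 and 992 CPM) and cold (324, 346 and 259 CPM), yet both groups lay below the 2055 to 2859 CPM of control leaves.

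Chaperone partners showed the same direction. All 11 genes listed under Hsp90 protein binding, which assist the chaperone HSP90, were heat-higher, with a median log2FC of 2.04 and a summed level of 1149 to 1225 CPM in heat, 240 to 282 in cold and 253 to 269 in control leaves. Cold and control levels of this group overlapped on the TMM scale. As a share of all counts cold (0.0325 to 0.0384%) lay above control (0.0276 to 0.0301%). Among them LOC105043585 measured 375, 384 and 347 CPM in heat and 54.8, 48.6 and 43.7 in cold (log2FC 2.91 ± 0.09), and LOC105041698 measured 219 to 240 CPM in heat and 48.6 to 58.3 in cold (log2FC 2.09 ± 0.09). With library totals 9 of the 11 were called. Under unfolded protein binding, 17 of 26 genes were heat-higher and none was cold-higher (median 1.32; 12 with library totals), and under chaperone binding 11 of 19 and none (median 1.40; 9 with library totals).

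LOC105050739, listed under ATP-dependent protein folding chaperone, measured 1047, 954 and 1000 CPM in heat and 15.6, 6.18 and 1.28 in cold (log2FC 7.02 ± 0.71). LOC105054742 (unfolded protein binding) measured 1175, 1019 and 1060 CPM in heat and 13.5, 11.3 and 4.92 in cold (log2FC 6.78 ± 0.34). In these genes, as in LOC105042708, the third cold library held the least. LOC105048385 and LOC105040761, both listed under chaperone binding, had log2FC of 5.79 ± 0.26 and 5.06 ± 0.24. LOC105048567, described by the study as a luminal-binding protein 5-like gene, a chaperone of the endoplasmic reticulum, was read 507 times in the 3 heat libraries and 2 times in the 3 cold libraries, a ratio of 316 with a 95% counting interval of 86.9 to 2613. Its heat level varied between libraries, at 3.16, 8.28 and 12.2 CPM.

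Protein refolding was mixed. Of 13 genes 6 were heat-higher and 3 cold-higher (median 0.61; 3 and 4 with library totals). The abundant LOC105035532 was higher in heat, at 973, 1021 and 922 CPM against 458, 452 and 396 in cold (log2FC 1.16 ± 0.12), but with library totals and in limma on FPKM its log2FC was 0.72 and not called. The 3 cold-higher members were LOC105055575 (log2FC −1.45), LOC105032887 (−1.34) and LOC105043987 (−1.13), the last 2 chosen after their values were seen. LOC105055575 lost its call without heat replicate 1 or 2 or without any of the 3 cold libraries (log2FC −1.20 to −1.48). LOC105043987 measured 13.9 to 17.9 CPM in heat and 33.6 to 38.1 in cold. Among the 30 genes held here under protein folding 17 were heat-higher and 1 cold-higher (10 and 2 with library totals), and under ATP-dependent protein folding chaperone, which shares 19 genes with it, 18 and 1 (11 and 2). Summed levels in cold lay above control for protein refolding (1465 to 1570 against 814 to 953 CPM) and protein folding (2831 to 3134 against 2241 to 2741). The same held for ATP-dependent protein folding chaperone (4230 to 4674 against 2993 to 3519) and chaperone binding (390 to 448 against 275 to 301). For unfolded protein binding cold lay below control (2608 to 2982 against 3674 to 4600 CPM).

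**Figure D2:**
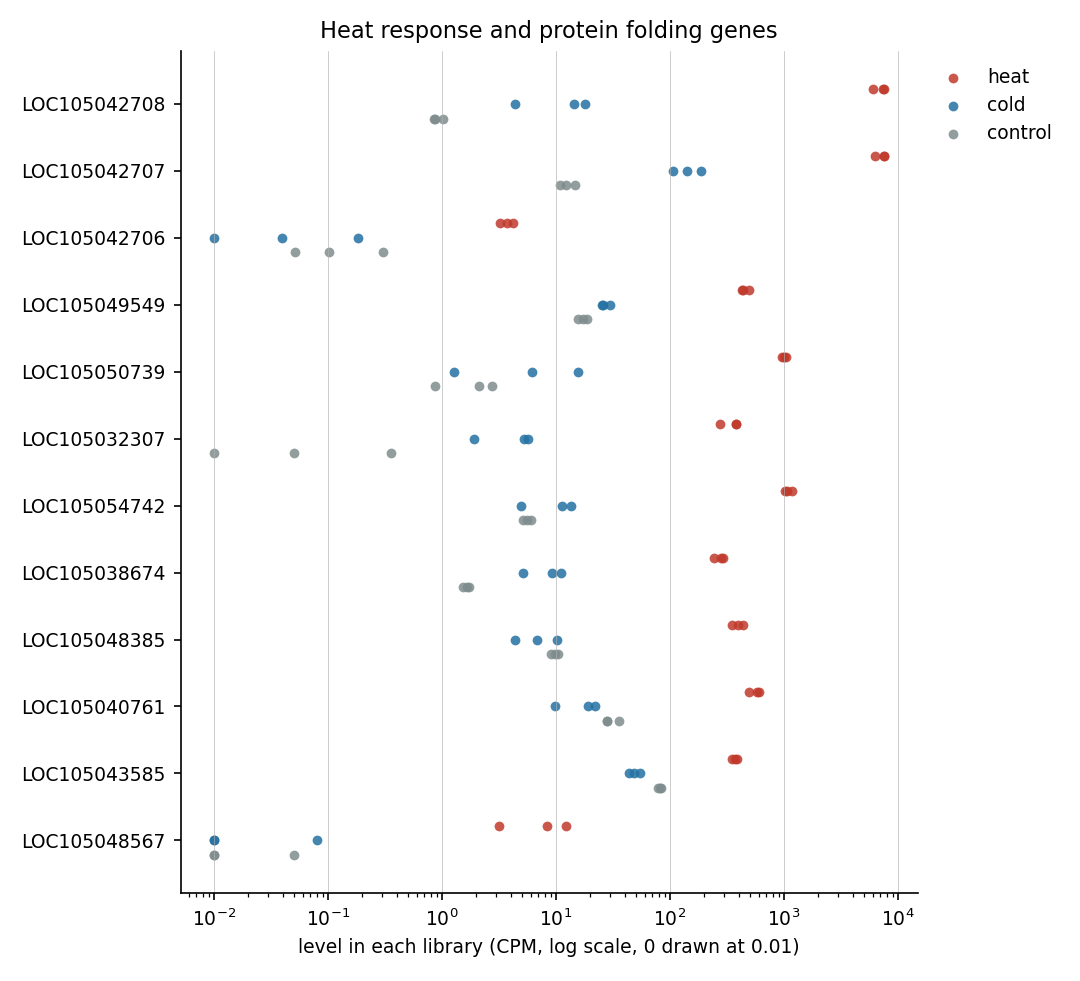
Level of 12 heat response and chaperone genes in each heat (red), cold (blue) and control (grey) library, in CPM on a log axis with 0 drawn at 0.01. In every gene drawn the 3 heat libraries lie above all cold and control libraries; the rows for LOC105042708 and LOC105042707 reach 6014 CPM or more in heat.

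Photosynthesis genes were higher in heat leaves than in cold leaves. Light-harvesting proteins bind chlorophyll and pass absorbed energy to the photosystems. Of the 21 genes listed under light harvesting 18 were heat-higher and none was cold-higher (median log2FC 2.06; 16 with library totals), and in all 21 the 3 heat libraries lay above the 3 cold libraries, as they did in 30.8% of all genes. Their summed level was 59273, 60211 and 46211 CPM in heat, 13599, 13760 and 17137 in cold and 26764, 50903 and 54101 in control leaves. Heat exceeded cold by a ratio of 3.72, while heat and control overlapped and the first control library stood below the other two. All 21 of these genes are also among the 28 under photosystem I, of which 24 were heat-higher, and 20 of them are among the 44 held here under photosystem II, of which 30 were (20 and 27 with library totals). No photosystem II gene was cold-higher, but 1 was with library totals, in limma on FPKM, in a fit of the 6 heat and cold libraries alone and without heat replicate 1 or cold replicate 2.

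LOC105032174, the most abundant light-harvesting gene, measured 14056, 13610 and 11966 CPM in heat, 2794, 2526 and 3181 in cold and 9650 to 17760 in control leaves (log2FC 2.22 ± 0.26, adjusted p = 5.35e-06). LOC105032321 showed the largest change of the light-harvesting genes, from 246, 249 and 326 CPM in cold to 2901, 3057 and 2281 in heat (log2FC 3.33 ± 0.31). Heat and cold were thus far apart in both, with the control libraries of LOC105032174 around its heat level. LOC105032994 was different from these in its reference level: it measured 106 to 195 CPM in heat and 23.4 to 27.9 in cold, but only 8.5 to 11.3 in control leaves (log2FC 2.68 ± 0.29).

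The oxygen-evolving complex, which splits water at photosystem II, had calls in some of its members. Of its 12 genes 3 were heat-higher DEGs, against 12.3% of all genes, and none was cold-higher (median log2FC 0.87; 2 with library totals), and leaving out heat replicate 3 or cold replicate 3 raised the count to 6. LOC105052408 measured 1634, 1748 and 1452 CPM in heat and 182, 169 and 156 in cold (log2FC 3.25 ± 0.28), and LOC105033414 measured 3179 to 4248 CPM in heat and 510 to 560 in cold (log2FC 2.80 ± 0.22). The abundant LOC105047072 changed less, from 1757 to 1938 CPM in cold to 3678 to 4797 in heat (log2FC 1.21 ± 0.24), and was not called with library totals or in limma on FPKM (0.76). Because these 3 include the most abundant members, the summed level was 9062 to 11820 CPM in heat and 2963 to 3279 in cold.

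Carbon fixation was split among its 6 genes, 2 heat-higher and 1 cold-higher (none and 2 with library totals), against 12.3% and 9.79% of all genes. Without heat replicate 2 or cold replicate 1 or 3 only 1 was heat-higher, and without cold replicate 3 as many as 2 were cold-higher. LOC105041203, the most abundant gene of both heat and cold leaves, measured 20268, 19178 and 13265 CPM in heat, 6561, 7299 and 8945 in cold and 6210 to 9709 in control leaves (log2FC 1.21 ± 0.26, adjusted p = 0.00133). It was not called with library totals or in limma on FPKM (log2FC 0.76). Cold and control overlapped, and heat stood above both. LOC105046517 went the other way, at 18.7 to 21.9 CPM in heat and 66.4 to 75.3 in cold (log2FC −1.81 ± 0.20). Among 7 carotenoid genes 2 were heat-higher, LOC105054212 (log2FC 2.56 ± 0.33) and the scarce LOC105060468, which had 159 reads in heat and 2 in cold, a ratio of 99.0 with a counting interval of 27.0 to 824.

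**Figure D3:**
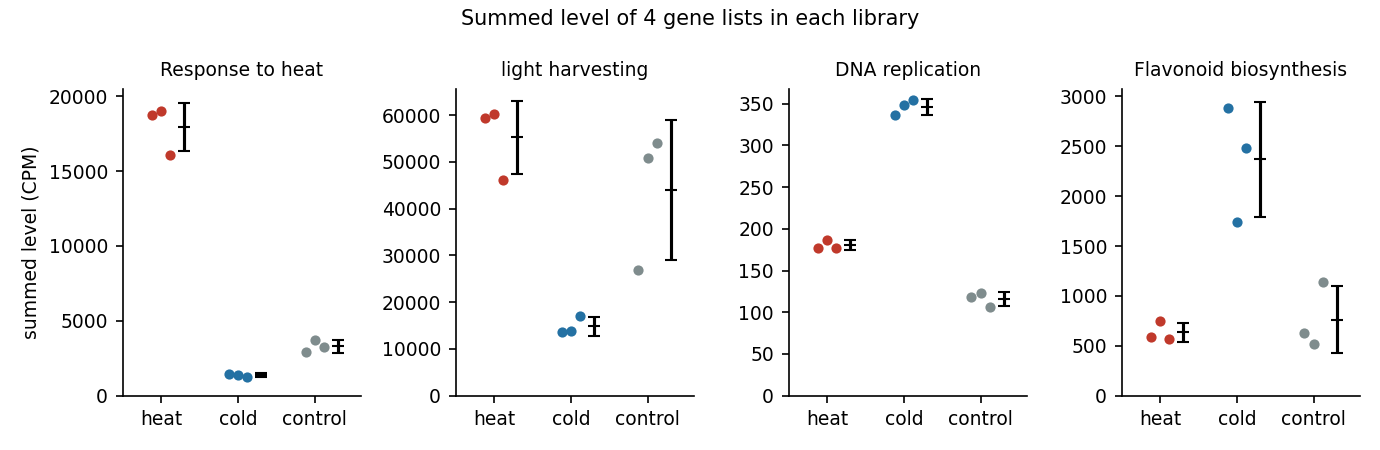
Summed level of 4 gene lists in each library, in CPM from 0, for heat, cold and control leaves, with the mean and SD of the 3 libraries in black. Response to heat and light harvesting are higher in heat than in cold in all libraries, and DNA replication and flavonoid biosynthesis are higher in cold than in heat.

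Genes of membrane channels and of the cell wall were mostly higher in heat. Of 14 genes listed under channel activity, which include carriers of water and small solutes, 11 were heat-higher and 1 cold-higher (median log2FC 2.12; 10 and 2 with library totals), and their summed level was 5196 to 6107 CPM in heat, 1276 to 1442 in cold and 1660 to 1947 in control leaves. The most abundant, LOC105042909, measured 2449, 1918 and 2286 CPM in heat and 612, 688 and 534 in cold (log2FC 1.86 ± 0.17). LOC105055645 changed most, from 5.72, 8.84 and 5.37 CPM in cold to 151, 173 and 146 in heat (log2FC 4.56 ± 0.30). The cold-higher member, LOC105043497, measured 3.88 to 6.27 CPM in heat and 8.25 to 11.7 in cold (log2FC −1.04 ± 0.34) and was chosen after its values were seen; without cold replicate 3 or heat replicate 1 or 3 it fell short of 2-fold (log2FC −0.90 to −0.95).

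Xyloglucan is a hemicellulose that ties cellulose fibres together, and enzymes that cut and rejoin it act in cell expansion. Of 17 genes under xyloglucan metabolic process 11 were heat-higher and 1 was cold-higher (median log2FC 2.11; 9 and 1 with library totals). LOC105037481 measured 27.1, 41.5 and 55.7 CPM in heat and 1.64, 0.714 and 3.64 in cold (log2FC 4.36 ± 0.54). LOC105049189 measured 41.9, 59.3 and 128 CPM in heat and 12.6, 2.89 and 10.3 in cold (log2FC 3.15 ± 0.56), so that its libraries varied widely within both groups without overlapping. LOC105050826 had a log2FC of 4.67 ± 1.16 that rests on 1 library: its heat levels were 1.17, 1.03 and 28.0 CPM, and without heat replicate 3 the log2FC was 1.48 and not called. Without that library 2 genes of the list were cold-higher. The cold-higher LOC105035212 had 53 reads in cold and 3 in heat, a ratio of 14.2 with a counting interval of 4.6 to 71. A beta-1,3-endoglucanase gene of the study's list of strongly heat-induced genes, LOC105033962, measured 196, 43.8 and 75.9 CPM in heat and 0.476 to 1.64 in cold (log2FC 6.80 ± 0.89).

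Flavonoid genes were higher in cold leaves. Of the 7 genes listed under flavonoid biosynthetic process, which make pigments that absorb ultraviolet and blue light, 4 were cold-higher and none was heat-higher, with a median log2FC of −2.61 (5 and none with library totals). Their summed level was 591, 746 and 573 CPM in heat, 2883, 1741 and 2482 in cold and 624, 514 and 1144 in control leaves, so heat overlapped control and cold stood above both. LOC105060373 measured 38.1, 183 and 80.4 CPM in heat and 1378, 860 and 1338 in cold (log2FC −3.57 ± 0.85, adjusted p = 0.0027). LOC105050962 measured 41.4, 61.4 and 40.4 CPM in heat and 859, 346 and 582 in cold (log2FC −3.64 ± 0.86). The second cold library was the lowest of the 3 in both. LOC105035984, an abundant member, did not pass the test (431 to 496 CPM in heat, 455 to 564 in cold; log2FC −0.09 ± 0.36).

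The general entry to this pathway, cinnamic acid biosynthesis, had scarce genes among its calls. Of its 4 genes 2 were cold-higher (3 with library totals), LOC105033424 (0.0935 to 0.291 CPM in heat, 0.714 to 1.58 in cold; log2FC −2.82 ± 0.71) and LOC105041875 (log2FC −2.10), whose call was lost without heat replicate 1 or 3 or cold replicate 1 or 3 (log2FC −1.73 to −2.21), leaving 1 cold-higher gene. The abundant member LOC105054501 measured 198 ± 28.3 CPM in heat and 307 ± 82.9 in cold (mean ± SD, n = 3), with overlap (log2FC −0.63 ± 0.56). A gene described as flavonol synthase/flavanone 3-hydroxylase, LOC105060008, ran against the flavonoid list: it measured 11.3, 5.61 and 11.8 CPM in heat and 0.113 to 0.357 in cold (log2FC 5.21 ± 0.57). The study listed it among its strongly heat-induced genes.

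All 4 genes listed under response to cold were cold-higher, also with library totals (median log2FC −2.71). LOC105048693 measured 0.291, 0.468 and 0.83 CPM in heat, 18.6, 20.9 and 18.6 in cold and 3.09 to 7.04 in control leaves (log2FC −5.17 ± 0.41, adjusted p = 1.05e-07). LOC105041362 measured 1.4 to 1.71 CPM in heat, 11.0 to 15.8 in cold and 0.81 to 1.31 in control leaves (log2FC −3.02 ± 0.38). For the other two the cold level did not stand above control: LOC105043427 measured 7.33 to 10.6 CPM in cold and 12.2 to 23.6 in control leaves (log2FC −2.40 ± 0.43), and LOC105054116 5.55 to 9.91 in cold and 7.71 to 10.2 in control (log2FC −1.49 ± 0.29). Both were at 1.12 to 3.55 CPM in heat, below cold and control.

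DNA replication genes, which copy the genome before cell division, were mostly higher in cold. Of 30 genes 19 were cold-higher and 1 heat-higher (median log2FC −1.14; 22 and none with library totals). The summed level was 177 to 187 CPM in heat, 336 to 354 in cold and 106 to 123 in control leaves, with no overlap between any of the 3 groups. LOC105051804 measured 6.65, 10.4 and 7.33 CPM in heat and 40.4, 42.4 and 43.2 in cold (log2FC −2.37 ± 0.19), and LOC105054821 measured 12.3 to 14.6 CPM in heat, 34.8 to 42.3 in cold and 4.15 to 6.49 in control leaves (log2FC −1.53 ± 0.25). The heat-higher member, chosen after its values were seen, was LOC105034434 (2.43 to 2.77 CPM in heat, 1.03 to 1.13 in cold; log2FC 1.23 ± 0.24), which lost its call with library totals (0.79) and in limma on FPKM (0.38 and 0.71). RNA modification genes had a median log2FC of −0.66, and 3 of the 30 held here were cold-higher DEGs and none was heat-higher, near the 9.79% of all genes that were cold-higher. In 27 of the 30 all cold libraries lay above all heat libraries, as they did in 30.5% of all genes, mostly by less than 2-fold. With library totals the cold-higher count was 21, without cold replicate 2 it was 5 and without cold replicate 3 it was 1.

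**Figure D4:**
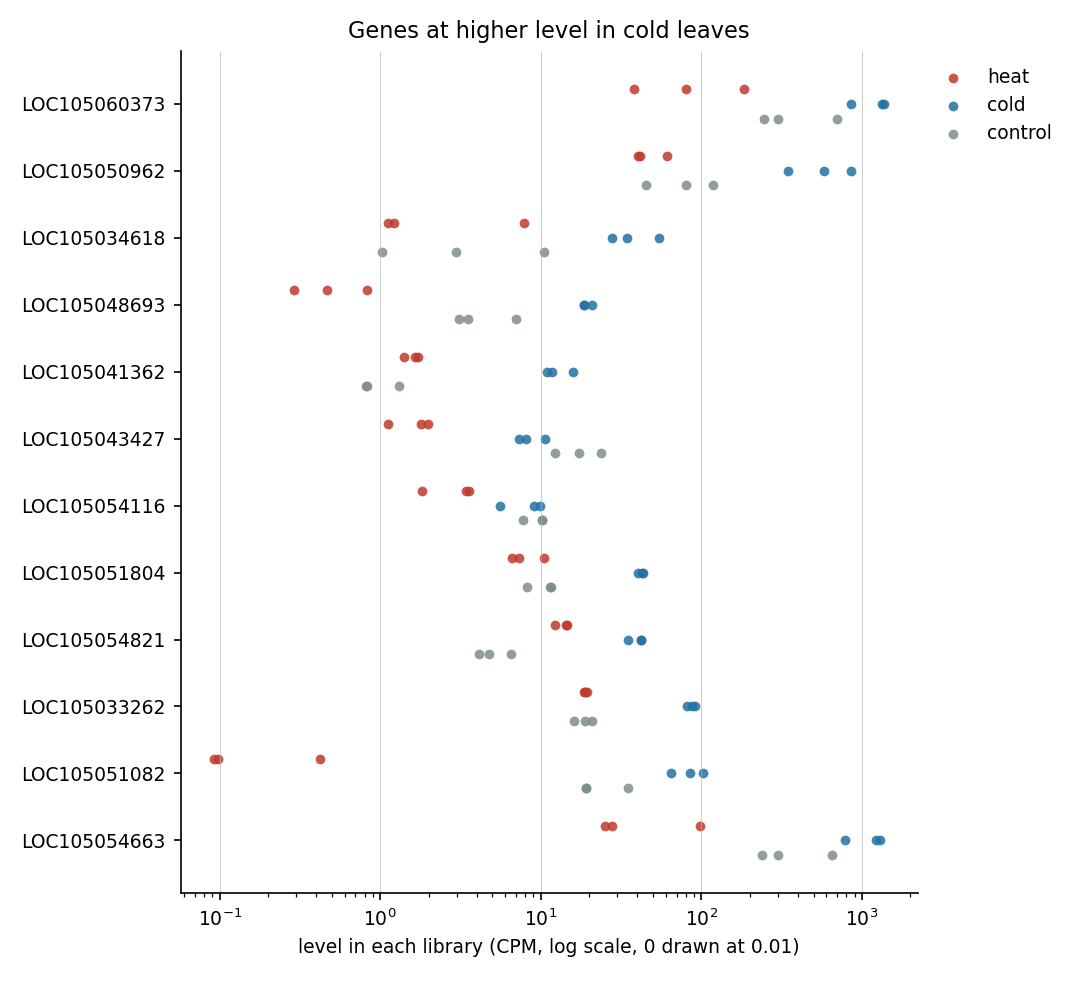
Level of 12 genes that were cold-higher DEGs in each heat (red), cold (blue) and control (grey) library, in CPM on a log axis. The cold libraries lie above the heat libraries in every gene drawn, while the control libraries lie above, between or below them depending on the gene.

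Calcium and hormone signalling genes went both ways. Of 7 genes listed under P-type calcium transporter activity, pumps that move calcium out of the cytosol, 4 were cold-higher and 1 heat-higher (median log2FC −1.14; 5 and 1 with library totals). LOC105033262 measured 19.5, 18.9 and 18.6 CPM in heat, 91.6, 87.5 and 81.9 in cold and 16.1 to 20.7 in control leaves (log2FC −2.20 ± 0.10). LOC105042221 was the reverse, at 26.4, 46.1 and 24.7 CPM in heat and 3.54, 2.18 and 2.74 in cold (log2FC 3.52 ± 0.49). Control leaves held 1.03 to 4.33 CPM of LOC105042221, so in both pumps the control libraries lay near the lower of the 2 treatments. This did not hold for all cold-higher pumps, since others had control libraries near their cold level.

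Of the 32 signalling genes that the study described, 31 were tested. Among them 11 were heat-higher and 2 cold-higher, against 12.3% and 9.79% of all genes. Library totals gave 8 and 7, and 4 were cold-higher without heat replicate 3. The calcium-storing calsequestrin-1-like gene LOC105039810 measured 7.72, 10.2 and 10.0 CPM in heat, 0.198 to 0.401 in cold and 2.83 to 5.68 in control leaves (log2FC 5.05 ± 0.38). Calmodulin-like protein 6 (LOC105049434), a calcium sensor, measured 22.7 to 28.8 CPM in heat and 3.41 to 5.61 in cold (log2FC 2.64 ± 0.22). Calmodulin-like protein 5 (LOC105057333) was lower in heat, at 65.0 to 93.6 CPM against 135 to 152 in cold, a difference under 2-fold (log2FC −0.87 ± 0.23, adjusted p = 0.00557) that was called cold-higher with library totals (−1.32) and in limma on FPKM (−1.31 and −1.32). Mitogen-activated protein kinase 5 (LOC105044664) measured 77.6, 175 and 138 CPM in heat and 26.8, 22.8 and 16.8 in cold (log2FC 2.56 ± 0.29).

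Receptor-like kinases with leucine-rich repeats sense signals at the cell surface. Of 10 tested, 2 were heat-higher and 2 cold-higher (2 and 3 with library totals), against 12.3% and 9.79% of all genes. LOC105060930 (63.4, 125 and 92.8 CPM in heat, 6.99 to 11.7 in cold) and the FLS2-like LOC105049067 (35.9 to 42.3 and 3.37 to 5.18 CPM) were heat-higher, with log2FC of 3.42 ± 0.29 and 3.20 ± 0.70. For LOC105049067 the 58.4 to 110 CPM of control leaves lay above heat as well as cold. LOC105037032 and LOC105036522 were cold-higher (log2FC −2.92 ± 0.46 and −2.83 ± 0.31), although for both the 5.43 to 6.38 and 17.3 to 34.3 CPM of control leaves lay above cold. The abscisic acid receptor PYL4-like gene (LOC105044738) was at 2.90 to 3.54 CPM in heat and 0.51 to 1.16 in cold (log2FC 2.0 ± 0.34), both below the 12.2 to 14.0 of control leaves. Of the 2 genes described as protein phosphatase 2C 32, LOC105044577 was heat-higher without overlap (61.8 to 134 against 24.6 to 55.0 CPM; log2FC 1.59 ± 0.39), and LOC105057113 was heat-higher with overlap, its first heat library at 5.73 CPM lying below the highest cold library at 7.84 (log2FC 1.22 ± 0.41). The call of LOC105057113 was lost without heat replicate 2 or 3 or cold replicate 2 or 3 (log2FC 0.94 to 1.10), in a fit of the 6 heat and cold libraries alone (1.2), with library totals (0.79) and in limma on FPKM with either pseudocount (0.63 and 0.73).

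Auxin-related genes also differed in direction. Under endoplasmic reticulum to cytosol auxin transport 2 of 7 genes were heat-higher and 3 cold-higher (2 and 4 with library totals). The shares over all genes were 12.3% and 9.79%. LOC105041163 measured 137 to 145 CPM in heat and 32.2 to 45.4 in cold (log2FC 1.89 ± 0.20), and LOC105044867 measured 6.97 to 9.13 CPM in heat and 15.7 to 23.3 in cold (log2FC −1.35 ± 0.18). Of genes with a symbol of their own in the EG11 gene table, DRM and IAA1 were chosen after their values were seen. The sources used here do not describe them, so their place among auxin-related genes rests on the symbol alone. DRM (LOC105045183) measured 318, 254 and 345 CPM in heat and 27.4 ± 2.66 in cold (mean ± SD, n = 3; log2FC 3.48 ± 0.16). Its control level of 349 to 456 CPM lay above heat as well as cold. IAA1 (LOC105039015) measured 32.8 to 34.9 CPM in heat, 102 to 131 in cold and 42.9 to 55.0 in control leaves (log2FC −1.82 ± 0.15).

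Ethylene-activated signalling held 8 heat-higher and 3 cold-higher genes of 25 (7 and 4 with library totals; median log2FC 0.30 and −0.14). LOC105051977 measured 21.3, 15.1 and 23.9 CPM in heat and 0.365, 0.396 and 0.601 in cold (log2FC 5.45 ± 0.75). The most abundant member, LOC105041997, measured 397 to 435 CPM in heat and 137 to 154 in cold (log2FC 1.52 ± 0.10). The 1-aminocyclopropane-1-carboxylate oxidase gene LOC105032553, whose enzyme makes ethylene, had 346 reads in the heat libraries and 3 in the cold libraries, a ratio of 144 with a counting interval of 48.7 to 700.

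Lipid and sugar genes were split. Fatty acid biosynthesis had 10 heat-higher and 1 cold-higher of 27 (median log2FC 0.14, and −0.30 with library totals, where 4 and 4 were called; 3 cold-higher without heat replicate 3). All 9 oxylipin genes are in that list, of which 4 were heat-higher and 1 cold-higher (1 and 2 with library totals, and 2 cold-higher without heat replicate 3). The cold-higher gene was LOC105038631 (7.28 to 9.77 CPM in heat, 22.2 to 25.3 in cold; log2FC −1.43 ± 0.18). The most abundant oxylipin gene, LOC105039460, overlapped between heat (154, 294 and 142 CPM) and cold (195, 323 and 366 CPM), both far below the 1427 to 5088 CPM of control leaves. Among 12 trehalose genes 5 were heat-higher and 3 cold-higher, with either scaling. LOC105039584 measured 97.6, 123 and 153 CPM in heat and 18.8, 17.4 and 13.0 in cold (log2FC 2.92 ± 0.30).

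The 3 described inositol-3-phosphate synthase genes, which make the precursor of inositol, did not move alike. LOC105048608 measured 1069, 885 and 680 CPM in heat and 282, 329 and 311 in cold (log2FC 1.51 ± 0.26, adjusted p = 0.00018). LOC105041643 measured 428, 414 and 322 CPM in heat and 101, 122 and 125 in cold without overlap, but did not pass the test (log2FC 1.74 ± 0.77, adjusted p = 0.071). LOC105032996 measured 276, 209 and 141 CPM in heat and 300, 429 and 538 in cold and did not pass it either (log2FC −1.02 ± 0.46, adjusted p = 0.0795). LOC105041643 passed in a fit of the 6 heat and cold libraries alone (log2FC 1.72) and without waterlogging replicate 1 (1.74). LOC105032996 passed in the same fits (log2FC −1.04 and −1.02), in DESeq2 (−1.03), with library totals (−1.47) and in limma on FPKM with either pseudocount (−1.46 and −1.47). All 3 genes had lower levels in control leaves, at 61.7 to 122, 7.8 to 18.8 and 49.2 to 68.4 CPM.

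Of the larger enzyme classes held here, heme binding had 25 heat-higher and 3 cold-higher of 53 genes (17 and 5 with library totals) and UDP-glycosyltransferase activity 18 and 3 of 52 (12 and 9, and 5 cold-higher without cold replicate 2). Over all genes 12.3% were heat-higher and 9.79% cold-higher. Carbohydrate transport had 6 and 1 of 18 (2 and 4 with library totals), so its majority turned with the scaling, and the cold-higher call was lost without heat replicate 1 or cold replicate 1. Under cysteine biosynthesis 2 of 7 were heat-higher and none cold-higher, LOC105050935 at 131 ± 17.2 CPM in cold and 484 ± 88.9 in heat (mean ± SD, n = 3) (log2FC 1.88 ± 0.24).

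**Figure D5:**
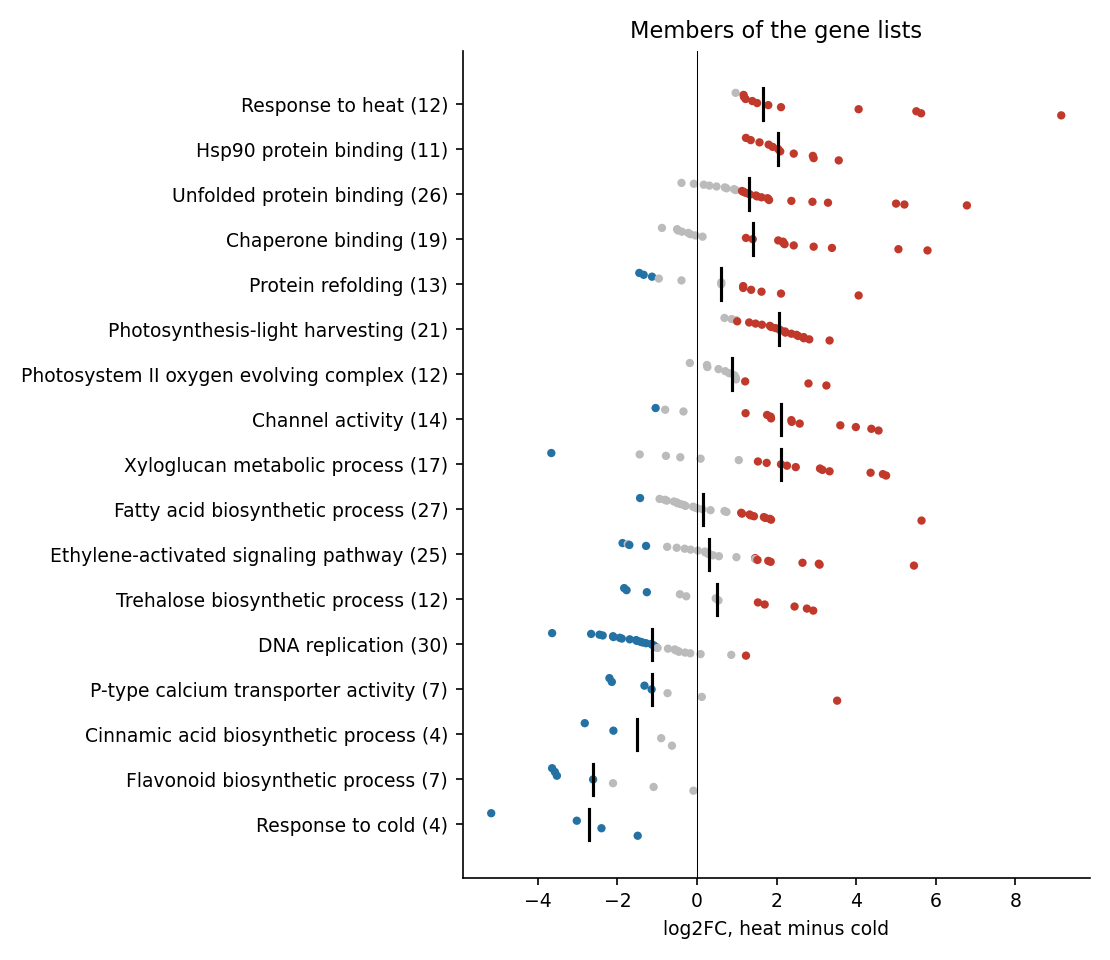
log2FC (heat minus cold) of each tested member of 17 gene lists, with the number tested in brackets; red points are heat-higher DEGs, blue points cold-higher DEGs, grey points neither, and black bars medians. The medians run from 2.12 for channel activity to −2.71 for response to cold.

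The largest changes of all were in genes without a description in the sources used here. LOC105048398 measured 9164, 8808 and 7564 CPM in heat, 1.31, 0.793 and 0.113 in cold and 0.0506 to 0.252 in control leaves (log2FC 13.47 ± 0.60, adjusted p = 2.92e-10). LOC105040002 measured 707, 627 and 458 CPM in heat and had 2 reads over the cold libraries and none in control leaves, a ratio to cold of 23598 with a counting interval of 6532 to 194866. In the other direction LOC105051082 measured 64.7, 84.4 and 103 CPM in cold, 0.0922 to 0.421 in heat and 19.0 to 35.1 in control leaves (log2FC −8.64 ± 0.68). LOC105054663, the most abundant of the 10 largest cold-higher changes, measured 1293, 783 and 1223 CPM in cold and 50.2 ± 41.4 in heat (mean ± SD, n = 3), its second heat library being the highest at 98.0 (log2FC −4.45 ± 0.90). Among DEGs 10 heat-higher genes had no read in cold and 7 cold-higher genes none in heat.

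Several large heat-higher changes were next to each other in the EG11 gene order. LOC105041257, LOC105041256 and LOC105041255 formed a run with log2FC of 9.22 to 12.10, and LOC105041260, LOC105041259 and LOC105041258 close by a run with 1.89 to 7.31. LOC105048398 and LOC105048400 (log2FC 9.80 ± 0.27) flank LOC105048399, which was much less abundant (5.24 to 5.85 CPM in heat, 0.601 to 1.24 in cold; log2FC 2.45 ± 0.37). Runs of at least 3 neighbouring DEGs of one direction numbered 42 among heat-higher genes, holding 140 of the 2485 placed on EG11, and 8 among cold-higher genes, holding 24 of 1823; the difference between the directions was not tested. Reads of near-identical neighbouring copies may be left uncounted or assigned to either, so levels within such a run are uncertain.

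The genes at the top of a contrast chosen by the study kept their side. Of 10 genes it tabulated as strongly induced by heat 8 were tested and all 8 were heat-higher (7 with library totals), and of 10 tabulated for cold 7 were tested and all 7 were cold-higher. Both tables hold genes that the study found upregulated in that stress and differentially expressed in no other, chosen on these libraries. Their direction here was thus largely fixed in advance, so this is a description. The cold genes were scarce: the phosphoribulokinase gene LOC105061178 had 55 reads in cold and 3 in heat (ratio 14.7, counting interval 4.78 to 73.6), and the ADA2-like transcriptional adapter LOC105032798 measured 2.95 to 4.06 CPM in cold and 0.234 to 0.631 in heat.

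Per gene length, LOC105048398 reached a mean of 10150 FPKM in heat, the same as the 10150 FPKM of the light-harvesting gene LOC105032174, whereas in cold they were at 1.2 and 2958 FPKM. The abundant LOC105059863 did not pass the test and varied within groups (5635, 5769 and 2688 CPM in heat, 6826, 2786 and 6609 in cold). Among genes with a mean of at least 100 CPM, LOC105049328 had the smallest difference on the TMM scale, at 147 to 179 CPM in heat and 139 to 185 in cold (log2FC 0.00 ± 0.12).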

How the data were processed

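Leaf RNA was sequenced as paired-end reads. The authors removed low-quality reads, mapped the rest with TopHat2 to the published oil palm genome and counted reads per gene with HTSeq; the deposited counts are whole numbers and not normalized. The deposited FPKM values are the same counts divided by gene length and library total. Neither the assembly version nor the strand setting is stated in the sources used here, and overlapping or antisense genes cannot be told apart.

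The tables hold 30606 genes, 856 of them models added by the authors. Gene numbers matched 25941 entries of an EG11 gene table, used for names and gene order only. Counts were fitted in R 4.3.3 with edgeR 4.0.16: filterByExpr (count 10, total 15) kept 23830 genes, TMM scaled the 18 libraries, and 1 quasi-likelihood model with 6 groups and 12 residual degrees of freedom was tested for heat minus cold, with Benjamini-Hochberg adjustment over all genes. The SE is the log2FC divided by the square root of F. The fit was tested on simulated data. Alternatives used limma 3.58.1 on FPKM and DESeq2 1.42.0. Where a group had 1 to 3 reads, a ratio with a 95% exact binomial interval is given; it reflects counting error alone, since PCR reads without identifiers are not separate molecules. The p-values reflect only the spread among the replicates.

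Genes named are, per direction, the 10 DEGs with the largest log2FC among those of at least 5 CPM without overlap; per list the 4 most abundant and the 4 most changed members; genes the study describes; the most abundant; and the least changed. Not all are printed. The comparison, lists and rules were chosen with earlier results of these data known. Lists by words in descriptions, markers of other cell types and promoter motifs were not analysed here.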

Additional observations from a re-analysis of the deposited data

How the results depend on the processing

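The counts of heat-higher and cold-higher DEGs were 2943 and 2333. They were 1710 and 5073 with library totals in place of TMM, 1672 and 4866 in limma on log2(FPKM + 0.1), and 1290 heat-higher genes in limma on log2(FPKM + 1), where the cold-higher count was 3006; FPKM values also carry library totals. With glmTreat, which tests for a change beyond 2-fold, the counts were 1471 and 805, and an adjusted p with no fold minimum 6286 and 5753. DESeq2 size factors, DESeq2, no filter and the 6 heat and cold libraries alone kept both counts within 1.5 times. Leaving out any of the 18 libraries gave 2801 to 3060 heat-higher and 2117 to 2453 cold-higher genes. Of 91 genes printed, 83 were called. None of the 91 changed direction with a call. Of the 83, 5 lost their call with library totals, 11 in limma on log2(FPKM + 1), 5 in limma on log2(FPKM + 0.1) and 5 under the other alternatives. These counts leave out glmTreat, under which single genes were not checked.

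The labels do not state that replicate numbers pair heat with cold. Deviations of same-numbered libraries correlated at −0.09, 0.05 and −0.21, and 0 heat libraries correlated best with their own number. With 3 libraries a group these correlations cannot decide whether the numbers are paired. With the replicate number as a block the counts were 2940 and 2333.

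Limits: 3 libraries a group, scaling that decides the balance of directions, lists drawn by the study from these samples, and few reads for the scarcest genes, which leave wide counting intervals. No group is large enough for a test of outlying samples.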
